A study of Catostomus macrocheilus with 21 samples.

Results

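The 200 probes with the highest signal in largescale sucker liver are described here. They were chosen from 14758 non-control probes by their mean value over 21 fish in the authors' deposited log2 table, after 1640 probes with an absolute Pearson's r of 0.6 or more with the probe LSS_UF_10838 had been left out. The last member ranked 273 among all probes, so 73 brighter probes were left out by that correlation, 47 of them with a positive r and 26 with a negative one. The study asked how liver expression relates to contaminant exposure in the largescale sucker (Catostomus macrocheilus), a river fish that feeds on the bottom. Its fish were reproductive adults taken at 3 Columbia River sites: Columbia City (6 fish), Longview (7 fish) and Skamania (8 fish). All fish were wild, and the labels give no treatment, strain, age, sex or contaminant level. Each fish gave 1 Cy3-labelled liver RNA on 1 array of a single-colour Agilent design.

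The liver makes most of the proteins of blood plasma, among them carriers, clotting factors, complement components and lipoproteins. In egg-laying fish the liver of females also makes egg yolk precursors under estrogen, and in both sexes it handles foreign compounds with oxidising and conjugating enzymes. Transcripts of such secreted and metabolic proteins usually lead the RNA of this organ. The files used here pair probes with assembly names and not with genes, so no member is given a gene or a role, the tissue label could not be checked against liver markers, and the members are named by their probes. Signal also depends on how well a probe binds its target. The ranking is therefore an order of probe signals, and whether it is also an order of transcript numbers was not tested.

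The choice of members fixed their mean level. Their deposited log2 means lay between 14.08 and 18.27, against a median of 6.03 over all probes. At the limit, LSS_UF_16321 and LSS_UF_19501 were the last members with means of 14.10 and 14.08. LSS_UF_11252 and LSS_UF_11691 fell just outside with 14.06 each. Correlation with LSS_UF_10838, which the rule also limited, ran from -0.60 to 0.60 among the members, with a median of 0.03. For 32 members the absolute r was at least 0.5. All 200 members were well above background on all 21 arrays, and none was saturated. The highest member signal was 397232 units, or 60.3% of the saturation value of its array. Every member was read from the low-gain scan, scaled up by the scanner software, on at least 5 arrays, and 96 members were on all 21. Of 4200 member values, 7 were missing because the spot was flagged as an outlier.

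The members held nearly as much signal as all other probes combined. On average they took 46.7% ± 3.29 (SD, n = 21) of the summed processed signal of an array, with a range from 41.8% to 51.1%. The highest probe, LSS_UF_13333, took 0.902%, the first 10 members 7.58%, the first 50 members 25.5% and the first 100 members 37.1%. No single probe therefore carried the total. The 73 brighter probes left out by correlation took a further 22.5% ± 1.60 (SD, n = 21).

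The members' share was on average higher at Columbia City than at the other sites, with overlapping ranges. At Columbia City it was 49.0% ± 2.60 (SD, n = 6), from 45.0% to 51.1% with a median of 50.2%. At Longview it was 45.8% ± 3.42 (SD, n = 7), from 41.8% to 51.1% with a median of 45.6%, and at Skamania it was 45.7% ± 3.05 (SD, n = 8), from 42.3% to 50.4% with a median of 45.3%. The ranges of all 3 sites overlapped, and the share was not tested, since it is a score over chosen members. The mean share on the 3 slides was 47.3% ± 3.23 (n = 6), 46.7% ± 3.69 (n = 8) and 46.2% ± 3.28 (n = 7). On slide 1 the single Columbia City fish had 51.1%, against means of 46.2% at Longview (n = 2) and 46.7% at Skamania (n = 3). On slide 2 the means were 48.8% (n = 3), 45.5% (n = 3) and 45.3% (n = 2) in that order, and on slide 3 they were 48.3% (n = 2), 45.7% (n = 2) and 45.1% (n = 3). Across the 21 fish the share had an r of -0.52 with array brightness, taken as the log2 75th percentile of an array, which ran from 8.09 to 9.98. Columbia City arrays had the lowest mean brightness, at 8.58 ± 0.19 (SD, n = 6), while Longview had 8.97 ± 0.48 (SD, n = 7) and Skamania 8.89 ± 0.63 (SD, n = 8). The part of brightness in the share was not tested.

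The 12 highest members were high in every fish. Levels below are log2 processed signals minus the 75th percentile of the array, so 0 is that percentile. LSS_UF_13333 ran from 9.34 to 9.94 with a median of 9.65 at Columbia City, from 8.67 to 10.15 with a median of 9.36 at Longview and from 8.48 to 9.82 with a median of 9.36 at Skamania. LSS_UF_13290 ran from 9.58 to 9.76 (median 9.65), from 8.62 to 10.04 (median 9.34) and from 8.28 to 10.15 (median 9.39) in the same order. For LSS_UF_13290 the Columbia City fish lay inside the ranges of the other sites. For LSS_UF_13333 they lay inside the Longview range, and 2 of them, at 9.85 and 9.94, lay above the highest Skamania fish. In linear units the signal of LSS_UF_13333 lay between 206502 and 375724, with a median of 339142. LSS_UF_12721, LSS_UF_17334, LSS_UF_13338, LSS_UF_13335, LSS_UF_15918, LSS_UF_13319, LSS_UF_13313, LSS_UF_10725, LSS_UF_13354 and LSS_UF_12095 followed. Their SDs between fish of a site ran from 0.41 for LSS_UF_10725 to 0.50 for LSS_UF_12095. The percentile subtracted from each array enters these SDs and ranges. LSS_UF_13290 had an SD of 0.48 on this scale and 0.15 without scaling, and LSS_UF_12721 had 0.45 and 0.16. On this scale their r with array brightness was -0.95 and -0.94. For LSS_UF_10725 the SD was 0.57 without scaling, and r with brightness was -0.26. The part of brightness in these SDs was not tested. LSS_UF_10725 differed from the rest of the 12 in the deposited table, where its SD between fish was 0.43, against 0.12 to 0.21 for the other 11.

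Many of the members carried neighbouring probe numbers. When members whose probe numbers differed by at most 10 were joined into runs, a grouping chosen after the values were seen, 47 members fell into 1 run from LSS_UF_13283 to LSS_UF_13374. That run spans 92 numbered probes, so 51.1% of them were members, against 1.36% of all probes. Because the run was drawn around members, a high share within it follows in part from how it was made. The run held 23.5% of the members, 13 of the first 20, 24 of the first 50 and 2 of the last 50. Another 14 probes of the run were bright enough but were left out by their correlation with LSS_UF_10838, all of them positive, and 31 ranked below the last member. The 47 members of the run had a median r of 0.40 with LSS_UF_10838, against -0.13 for the other members. The names of 40 of the 47 carried an assembly number, and these were 40 different assemblies. The next runs were LSS_UF_10344 to LSS_UF_10371 with 12 members among 28 numbers and LSS_UF_14636 to LSS_UF_14653 with 6 among 18. There were 110 runs in all, and 90 members stood alone. When probe numbers were cut into 148 blocks of 100, 73 blocks held no member. The block from LSS_UF_13300 to LSS_UF_13399 held the most, with 41 members among 100 probes. The sources used here do not say what the numbering follows.

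The run took more of the signal in some fish than in others. Its share was 17.5% ± 2.79 (SD, n = 21), from 12.3% in Skamania replicate 4 to 22.3% in Skamania replicate 2. Columbia City fish had 17.96% ± 1.36 (SD, n = 6), Longview fish 17.1% ± 2.97 (SD, n = 7) and Skamania fish 17.4% ± 3.60 (SD, n = 8). The site ranges overlapped, and Skamania held both the lowest and the highest fish. Its share had an r of -0.76 with array brightness over 21 fish, whereas the share of the other 153 members, 29.2% ± 3.14 (SD, n = 21), had an r of 0.14. For those 153 members, Columbia City averaged 31.1% ± 2.26 (SD, n = 6), Longview 28.6% ± 3.30 (SD, n = 7) and Skamania 28.3% ± 3.31 (SD, n = 8). Skamania replicate 4, the fish with the lowest run share, had the brightest array, at 9.98. The part of brightness in these shares was not tested.

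How the members' spread between fish of a site compared with that of other well-measured probes depended on the scale. On the 75th-percentile scale the median SD was 0.51 on the log2 scale over the 200 members, 0.53 over the 7072 probes that stood well above background in every fish, 0.55 over the 200 probes next in rank and 0.62 over the 11040 probes tested. An SD above 1 was found for 17 members, or 8.50%, against 9.42% of those 7072 probes. None of the 17 was in the run of neighbouring numbers, whose median SD was 0.47, against 0.57 for the other members. In the deposited table the median SD was 0.41 over the members, 0.24 over the run and 0.45 over the other members, against 0.52 over the 7072 probes. Without scaling these medians were 0.61, 0.38, 0.69 and 0.72, so the members' median was lower than that of the 7072 probes on all 3 scales, by least on the first. Within the members, the run was the less variable part on all 3 scales. Columns of the deposited table share the same distribution, which limits the spread of the highest probes there.

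A few members differed strongly from fish to fish at every site. LSS_UF_24703 had the largest SD, 2.65, with levels from 1.15 to 9.62 (median 7.43) at Columbia City, from 1.25 to 7.71 (median 6.57) at Longview and from 0.69 to 8.10 (median 4.57) at Skamania. Low fish of this probe came from every site: Columbia City replicate 6 at 1.15, Longview replicate 5 at 1.25 and Skamania replicate 2 at 0.69. LSS_UF_10120 followed with an SD of 2.58, from 3.31 to 9.49 (median 8.92), from 0.49 to 9.83 (median 5.96) and from 3.05 to 9.11 (median 7.04). Longview held both its lowest fish, replicate 5, and its highest, replicate 6. LSS_UF_10089 had an SD of 2.28, from 2.41 to 8.11 (median 5.48), from 2.11 to 7.99 (median 6.90) and from 4.09 to 9.22 (median 8.17). For all 3 probes the site ranges overlapped widely. None of their pairwise site differences was called.

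For a pair of members, 1 fish set most of the spread. LSS_UF_22353 stood at 0.52 in Longview replicate 2 and at 5.48 or more in every other fish, with Longview values from 8.21 to 9.54 in the other 6. LSS_UF_20054 stood at 0.23 in the same fish and at 3.41 or more elsewhere, with the other 6 Longview values from 6.41 to 8.06. Their SDs were 2.08 and 1.95. Longview replicate 2 also had the lowest level of 35 members on the 75th-percentile scale and of 31 in the deposited table, and for Skamania replicate 4 these counts were 45 and 31. The highest level fell to Longview replicate 2 for 0 members on the first scale and for 26 in the deposited table. For Skamania replicate 4 those counts were 2 and 15. Longview replicate 2 had the lowest share of signal in the 153 members outside the run, at 21.8%, while its share in the run, also 21.8%, was the highest at Longview. Its array brightness, at 8.68, lay inside the range of the other fish. Without this fish, 15 members had an SD above 1.

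LSS_UF_22507, LSS_UF_19501 and LSS_UF_11768 completed the 8 most variable members, with SDs of 1.53, 1.36 and 1.36. LSS_UF_22507 fell to 3.00 in Longview replicate 3 and 3.22 in Skamania replicate 4, against site medians of 7.28 and 6.49. LSS_UF_19501, the last member by rank, ran from 3.52 to 7.22 at Columbia City, from 4.26 to 7.34 at Longview and from 1.75 to 5.69 at Skamania. LSS_UF_11768 stayed between 4.98 and 6.09 at Columbia City, while it ran from 2.68 to 7.27 at Longview and from 3.41 to 7.75 at Skamania.

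At the other end, the least variable members kept to a narrow band. LSS_UF_12667 had the smallest SD, 0.24, with levels from 5.26 to 5.89 (median 5.75) at Columbia City, from 5.11 to 6.01 (median 5.53) at Longview and from 5.10 to 5.66 (median 5.41) at Skamania. LSS_UF_16213 had an SD of 0.26 and LSS_UF_20348 one of 0.30. LSS_UF_15228, LSS_UF_12328, LSS_UF_12959, LSS_UF_12421 and LSS_UF_14180 lay between 0.31 and 0.34. For LSS_UF_16213 the deposited table gave a larger SD of 0.40, and for LSS_UF_15228 a smaller one of 0.22. Which members are least variable thus depends on the scale.

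Only 1 member was printed more than once. LSS_UF_REP_20011 had 10 spots per array, of which 6 to 10 entered after flagged spots were left out. The SD between its spots on an array had a median of 0.06 and reached at most 0.11, against 0.95 between fish of a site. Its levels ran from 6.54 to 8.70 at Columbia City, from 4.86 to 8.04 at Longview and from 5.92 to 8.72 at Skamania. For this probe, fish differed far more than spots. With 1 array per fish, differences between arrays are part of that spread, and spot noise of the other members was not measured.

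The comparison of sites asked whether the highest-signal probes differ along the river, and few passed the tests. By limma with Benjamini-Hochberg adjustment over 11040 probes, 0 of 200 members were called between Longview and Skamania at an adjusted p under 0.05, where 2.84% of all tested probes were called. Between Columbia City and Skamania, 0 members were called and 0% of all probes. Between Longview and Columbia City, 0 members were called and 0% of all probes. By the F test over 3 sites, 1 member was called, or 0.5%, against 1.76% of all probes. At an unadjusted p under 0.05 the members numbered 26 of 200 between Longview and Skamania, or 13.0%, against 13.8% of all probes, which is near the background. They numbered 41 between Columbia City and Skamania, or 20.5% against 9.26%. All 41 were higher at Columbia City, where 7.21% of all probes were. Between Longview and Columbia City they numbered 17, or 8.50% against 9.89%. Of these, 16 were lower at Longview, or 8.00%, against 2.93% of all probes. The 3 pairwise comparisons share arrays. All these counts are on the 75th-percentile scale. On it, pairs of members had a median r of 0.33 with site means removed, so the members counted are not independent results. Columbia City arrays had the lowest mean brightness, at 8.58. The members' median difference of Columbia City from Skamania was 0.42 on this scale and 0.02 in the deposited table. The shared distribution of the deposited columns limits how far such a median can move there. The part of brightness in these counts was not tested. The median SE of a member's difference was between 0.27 and 0.29.

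The member called over the 3 sites was LSS_UF_19668. Its levels ran from 6.94 to 7.80 (median 7.35) at Columbia City, from 6.61 to 7.59 (median 6.68) at Longview and from 5.93 to 6.93 (median 6.54) at Skamania. All 6 Columbia City fish lay above all 8 Skamania fish, by a narrow margin, and the Longview fish overlapped both. The limma F test gave an adjusted p of 0.0438. Columbia City stood 0.95 above Skamania (SE 0.21), which did not pass on its own (limma adjusted p = 0.197). The deposited table gave 0.52 (SE 0.19) for it, at a limma adjusted p of 0.668, and the F test gave an adjusted p of 0.397. The F call was also lost when testing was limited to the 7072 probes above background in every fish, at an adjusted p of 0.250, and when no filter on dim probes was set, at 0.0523. Of the 21 fits that left out 1 fish, 4 kept the call, those without Columbia City replicate 6, Longview replicate 6, Skamania replicate 5 or Skamania replicate 6, and 17 lost it, with adjusted p from 0.0507 to 0.0963.

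LSS_UF_10050 came nearest to a call between Longview and Skamania. It ran from 6.21 to 8.31 (median 7.80) at Columbia City, from 5.87 to 8.15 (median 7.56) at Longview and from 4.88 to 7.36 (median 5.97) at Skamania. Longview and Columbia City fish were mostly higher than Skamania fish, but the ranges overlapped. Longview stood 1.45 above Skamania (SE 0.40, limma adjusted p = 0.0539), and Columbia City 1.65 above Skamania (SE 0.42, limma adjusted p = 0.380). The first of these differences passed when Columbia City replicate 6, Longview replicate 2, Skamania replicate 3 or Skamania replicate 6 was left out (limma adjusted p = 0.0304, 0.0181, 0.0445 and 0.0193). Over all fits that left out 1 fish, it lay between 1.30 and 1.71 with an adjusted p from 0.0181 to 0.131.

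LSS_UF_14645 and LSS_UF_13009 were next in that comparison. LSS_UF_14645 ran from 6.12 to 7.11 (median 6.53) at Longview and from 5.47 to 6.24 (median 5.81) at Skamania, a difference of 0.71 (SE 0.20, limma adjusted p = 0.0621). LSS_UF_13009 ran from 4.82 to 6.41 (median 5.67) and from 4.52 to 5.25 (median 4.85), a difference of 0.81 (SE 0.24, limma adjusted p = 0.0692). In both, the lowest Longview fish overlapped the highest Skamania fish. LSS_UF_14645 passed without Columbia City replicate 6 or Skamania replicate 6 (limma adjusted p = 0.0410 and 0.0425), and LSS_UF_13009 without Longview replicate 5 (limma adjusted p = 0.0220). Between Columbia City and Skamania, LSS_UF_23632 differed by 1.76 (SE 0.48, limma adjusted p = 0.386), from 5.31 to 7.75 at the first site and from 3.96 to 6.53 at the second. Between Longview and Columbia City the smallest p-values belonged to LSS_UF_20367, LSS_UF_17122 and LSS_UF_10371. In that order Longview minus Columbia City gave -0.67, -0.70 and -0.70 on the log2 scale. The SEs were 0.24, 0.27 and 0.27, and limma gave an adjusted p of 0.352, 0.385 and 0.398. Their ranges at both sites overlapped.

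Although single members rarely passed, the members as a set lay higher at Columbia City on the 75th-percentile scale. Their median log2 difference from Skamania was 0.42, against a median of 0.09 over all tested probes. Of the 200 members, 181 were above 0, or 90.5%, against 59% of all tested probes. In the deposited table, whose columns share 1 distribution, the median was 0.02. There 107 of 200 members were above 0, or 53.5%, against 50.9% of all tested probes. A shared distribution limits how far the median of top-ranked probes can differ between sites. The 0.02 is therefore not a separate check of the 0.42. Without any scaling 70.5% of members were above 0, against 30.9% of all tested probes, and the median was 0.12. Between Longview and Skamania the 3 scales gave 0.13, -0.03 and 0.21, and between Longview and Columbia City they gave -0.26, -0.02 and 0.12. The direction of the last 2 therefore changed with the scale. Over all tested probes the medians on the 3 scales were 0.09, 0.01 and -0.22 for Columbia City against Skamania, 0.11, 0.01 and 0.19 for Longview against Skamania, and 0.02, 0.0033 and 0.41 for Longview against Columbia City. Within slides 1, 2 and 3 the first median was 0.72, 0.41 and 0.41 on the 75th-percentile scale, where slide 1 held a single Columbia City fish.

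The median correlation among the members also depended on the scale. With site means removed, the median Pearson's r over the 19900 pairs of members was 0.33 on the 75th-percentile scale, 0.0032 in the deposited table and 0.58 without scaling. The same medians over pairs of the 7072 probes measured above background in every fish were 0.0036, -0.00032 and 0.47, and over the 200 probes next in rank they were 0.10, 0.02 and 0.52. All pairs rest on the same 21 arrays, and on the first scale all levels share the percentile subtracted from each array. In the deposited table all columns have the same distribution. That limits how far probes at the top of every array can rise or fall together. Its low median r therefore cannot show whether the members move together. The first 100 members had a median r of 0.47 on that scale and the first 400 probes one of 0.18.

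The run of neighbouring numbers had mostly positive correlations on every scale, though not for every pair. Its lowest pairwise r was -0.12 on the 75th-percentile scale, -0.34 in the deposited table and 0.15 without scaling. Its 1081 pairs had a median r of 0.89 on the 75th-percentile scale, 0.61 in the deposited table and 0.85 without scaling. Against the other members the run had median r values of 0.30, -0.10 and 0.52. Pairs among the other members had 0.32, 0.02 and 0.60. In the deposited table, 33.2% of the run's pairs had an r above 0.7, against 1.68% of the pairs among other members. The run's members followed array brightness with a median r of -0.71 on the 75th-percentile scale, to which the subtracted percentile contributes, and of -0.54 in the deposited table, against -0.16 and -0.0018 for the other members. The parts of brightness and of correlation with LSS_UF_10838 in this coordination were not tested. The shorter run from LSS_UF_10344 to LSS_UF_10371 had median r values of 0.53, 0.25 and 0.80.

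Average-linkage grouping, with groups joined down to a mean r of 0.7, gave 8 groups of at least 5 members on the 75th-percentile scale, with 122 members in them, and 41 members stood alone. The largest had 59 members, led by LSS_UF_13333 and LSS_UF_13290, and held 42 of the 47 members of the run. The second had 18 members led by LSS_UF_14885 and LSS_UF_15966, with 3 from the run. The third, with 10 members led by LSS_UF_10365 and LSS_UF_10358, and the fourth, with 10 led by LSS_UF_10354 and LSS_UF_13449, held none of it. Smaller groups of 8, 7, 5 and 5 were led by LSS_UF_11860 and LSS_UF_23127, by LSS_UF_17626 and LSS_UF_10873, by LSS_UF_10725 and LSS_UF_12959, and by LSS_UF_14012 and LSS_UF_13824. The deposited table gave 3 groups of at least 5, with 43 members in them. Its largest, with 31 members, lay wholly within the 59 (52.5% of them) and held 28 of the run. Without scaling there were 5 groups of at least 5, with 156 members in them. The largest then had 73 members, led by LSS_UF_10725 and LSS_UF_10296, and none from the run, while 45 of the run were in the second, with 60 members. These groups follow from the values and were not tested.

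Some members came from the same assembly by name. An assembly number was present in the names of 184 members, which covered 179 assemblies, and 3 assemblies had several members, giving 8 pairs with p-values adjusted over them. The p-values ask only whether r or rho differs from 0. Over all pairs of members on the 75th-percentile scale, the median r was 0.33, and 13.3% had an r above 0.7. Whether pairs of the same assembly exceed other pairs of members was not tested. LSS_UF_10359 and LSS_UF_10293, both of assembly 54, moved together, with site means removed (r = 0.98 and Spearman's rho = 0.93 over n = 21 fish, permutation p = 1e-05 for each, the smallest that 100000 permutations can give, adjusted 4e-05). Without the 2 fish farthest from the median, r was 0.96. In assembly 5149, LSS_UF_11722 and LSS_UF_11721 had an r of 0.93 and a rho of 0.92 (permutation p = 1e-05 for each, adjusted 4e-05), and r was 0.89 without the 2 farthest fish. Their pairs with LSS_UF_11720 and LSS_UF_11724, of the same assembly, and the pair of those 2 had r from 0.42 to 0.52. Without the 2 farthest fish, r in these pairs ran from 0.10 to 0.44. LSS_UF_23127 and LSS_UF_10260 of assembly 6675 had an r of 0.72 and a rho of 0.68 (permutation p = 0.00026 and 0.00092, adjusted 0.000693 for r), which was 0.57 without the 2 farthest fish. In the deposited table the same pair had an r of 0.40 and a rho of 0.46 (permutation p = 0.0712 and 0.0373, adjusted 0.0753 for r), whereas the first 2 pairs kept r values of 0.95 and 0.90.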

How the data were processed

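Liver RNA of 21 fish was measured on 21 arrays. Per the labels, scans were of Cy3-labelled cRNA, and Agilent Feature Extraction is given as 9.1 by the submitters' processing notes and as 10.1.1.1 by the file headers. The authors' deposited scanner files hold linear intensity values per spot. The authors' deposited table holds log2 values of the same arrays with equal columns, and the sources used here do not name its normalization. The main values were log2 processed signals, averaged over the spots of a probe without outlier-flagged spots, minus the 75th percentile of each array. A probe was tested if well above background on at least 6 arrays, which kept 11040. Site means were set against each other in limma 3.58.1 (R 4.3.3) over all 21 arrays (1 mean per site, two-sided, Benjamini-Hochberg over all tested probes, called at an adjusted p under 0.05). The fit was also run on simulated data with independent noise for each probe. That cannot show how it behaves where probes are correlated, as the members are on this scale. The sample titles give a site and a replicate number, and each replicate was taken as a separate animal. The number of arrays limits the precision. Over the members, Pearson's r between arrays ran from 0.500 to 0.918, with a median of 0.778.

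The members, their rule and the lists were chosen with earlier results of these data known. Members named are the 12 highest, the 8 most and 8 least variable, those called, the 3 with the smallest p in each pairwise test without calls, those at the limit, the 2 highest of each correlation group and any printed 10 times. Gene lists and cell type markers could not be applied, since the files used here name no genes, and no sequences were used. Shares are of the summed processed signal of non-control probes. SDs are pooled over sites (18 degrees of freedom). Alternatives covered normalization, background correction, filters, slide, a replicate block, array weights, the membership rule and leaving out each fish. The number run, its values, the count of SDs above 1 and the medians of differences were added after seeing the data.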

Additional observations from a re-analysis of the deposited data

Results flagged for a closer look

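Among 159 site groups of values examined (50 named members and 3 shares of signal at 3 sites), 10 had a fish whose gap to the nearest other fish of its site was large for the range of that site. Chance marks about 1 in 20 groups that were not chosen by their values. The members here were named by their values, and 4 of the 10 belong to the 8 named for a large SD, so that rate need not hold for them. Levels are log2 over the 75th percentile. Of the 10, 4 belong to Longview replicate 2. This fish was low for LSS_UF_22353, at 0.520 against 8.21 in the nearest Longview fish, and for LSS_UF_20054, at 0.232 against 6.41. It was also low for LSS_UF_10358, at 6.47 against 7.63, and its share of signal in the members outside the run of neighbouring numbers was 21.8% against 27.6%. In the deposited table Longview replicate 2 had the lowest level of 31 members and the highest level of 26. Longview replicate 6, whose array was the least bright at its site, was high for LSS_UF_14885, at 9.05 against 8.20, and for LSS_UF_10873, at 10.02 against 8.26. In the deposited table this fish had the highest level of 10 members, against 94 on the 75th-percentile scale. Columbia City replicate 6 was low for LSS_UF_20054, at 6.62 against 8.05, and Columbia City replicate 1 was low for LSS_UF_17626, at 8.04 against 9.03. Skamania replicate 4 was low for LSS_UF_22507, at 3.22 against 5.84. Skamania replicate 6 was high for LSS_UF_16213, at 7.22 against 6.90. The part of array brightness in these values was not tested.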

How the results depend on the processing

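No member was called between Longview and Columbia City under any alternative run, and between Columbia City and Skamania only array weights gave calls (2: LSS_UF_10050 and LSS_UF_19668). Between Longview and Skamania the count of 0 became 8 with array weights, 1 with no filter on dim probes, 1 in a fit of only the 2 sites compared, and 4 among the 400 highest probes. For the F test the count of 1 became 8 with array weights, 2 with slide as a random block and 2 among the 400 highest probes. With no filter on dim probes the count stayed at 1, but the member called was LSS_UF_10050 and not LSS_UF_19668. The count became 0 with quantile normalization, median centring, no scaling and the deposited log2 table. It was 0 as well with normexp followed by quantile normalization and with only probes well above background on all arrays. It was also 0 with slide as a fixed block and within slides 2 and 3. Slide 1 held a single Columbia City fish, so its count is left out. Leaving out Longview replicates 2 and 6 and Skamania replicate 4 together, an alternative added after seeing the data, gave 0 as well. Leaving out each fish gave 0 to 3 calls for Longview against Skamania, 0 in the other pairwise tests and 0 to 6 for the F test, and both the 3 and the 6 came without Columbia City replicate 6. Without Longview replicate 2, 5 or 7 there was 1 call for Longview against Skamania, and without Skamania replicate 3 or 6 there were 2. The F test then called 1 without Longview replicate 2 or Skamania replicate 3 (LSS_UF_10050) and without Longview replicate 6 or Skamania replicate 5 (LSS_UF_19668), 2 without Skamania replicate 6, and 0 otherwise. Within slide 1, LSS_UF_17122 turned to 0.15 for Longview minus Columbia City. In the main fit, 2.84% of all tested probes were called between Longview and Skamania, and 1.76% by the F test. The shares of all probes called in the other settings are not given here. These counts therefore do not show whether members differ from other probes. The causes were not tested.

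The sites share replicate numbers. The 19 same-numbered pairs had r from -0.53 to 0.48, with a median of -0.20 and 7 above 0.1. The 127 pairs with other numbers had r from -0.61 to 0.62, with a median of -0.03 and 44 above 0.1. Same-numbered fish were thus no more alike by these values, which cannot show whether a number stands for a shared step. With the replicate block the F test called 0 members (smallest limma adjusted p 0.169), and the pairwise tests also called 0.

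The share of 46.7% was 37.1% for the 100 highest probes, 53.6% for the 400 highest and 64.0% with no exclusion by r. The same settings gave 39.1%, 55.7% and 67.0% at Columbia City, 36.2%, 52.9% and 62.8% at Longview, and 36.5%, 52.7% and 62.7% at Skamania. Leaving out each fish kept the share between 46.5% and 46.9% over all fish, between 48.6% and 49.9% at Columbia City, between 44.9% and 46.4% at Longview and between 45.1% and 46.2% at Skamania. The run's share stayed between 17.2% and 17.7%.

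The median SD of 0.51 was 0.41 with quantile normalization, 0.41 in the deposited table and 0.61 without scaling, and 0.48 to 0.52 without each fish. The median r of 0.33 was 0.0030 with quantile normalization, 0.0032 in the deposited table, 0.58 without scaling, 0.47 for the 100 highest and 0.18 for the 400 highest, and 0.26 to 0.36 without each fish. Within the number run 0.89 became 0.61, 0.61 and 0.85 in the first 3 of these, and 0.87 to 0.91 without each fish. The 17 SDs above 1 became 36 without scaling and 15 to 20 without each fish. The median difference of Columbia City from Skamania, 0.42, was 0.020 with quantile normalization, 0.019 in the deposited table and 0.016 with normexp followed by quantile normalization. Each of these settings gives the arrays equal distributions, so they are not separate checks. The same holds for quantile normalization and the deposited table in the SD and r above. The median difference was 0.12 without scaling, 0.72 within slide 1, and 0.35 to 0.51 without each fish. That of Longview from Columbia City, -0.26, was -0.023, -0.023, -0.029, 0.12 and -0.59 in the same order of settings, and -0.38 to -0.17 without each fish. That of Longview from Skamania, 0.13, was 0.0046 to 0.22 without each fish.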
